A study of Mus musculus with 8 samples.

Results

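The genes described here are 37 named genes of glycolysis and of the response to low oxygen, read by name from mouse expression arrays. They were picked by gene name, with earlier results of these data known. A probe of that name was kept for 36 of the 37, out of 23439 genes tested, and the brightest probe in the sample channel stood for each gene. No probe carried the name Gapdh. The cells were MC3T3-E1, a mouse line of skull bone osteoblasts, grown together with tumour cells and treated in culture. The 4 groups were co-cultures with tumour cells overexpressing the Notch ligand Jagged1 and given MRK-003, the same Jagged1 tumour cells given the solvent DMSO, tumour cells with the empty vector given MRK-003, and vector tumour cells given DMSO. MRK-003 inhibits gamma-secretase, the protease that frees the active part of Notch receptors. Each group had 2 biological replicates, on 8 arrays in all, and each co-culture RNA in Cy3 was hybridised beside 1 commercial mouse reference RNA in Cy5. All 4 groups were co-cultures, so none held osteoblasts alone, and no dyes were swapped. The sources used here do not name the tumour line or its species, nor say how the osteoblasts were parted from it before RNA was taken. In RNA from a mixed culture, fewer cells of a type and less RNA per cell cannot be told apart.

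Glycolysis splits glucose into pyruvate in the cytosol, and lactate dehydrogenase can turn that pyruvate into lactate. When oxygen is short, prolyl hydroxylases of the Egln family stop marking the transcription factor subunit HIF-1alpha for destruction, and HIF then binds short sites in the promoters of glucose transporters, glycolytic enzymes and mitophagy receptors. Osteoblasts are known for high glucose uptake and for releasing lactate even when oxygen is plentiful.

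Jag1, read by a mouse probe, separated the tumour cells in DMSO but not in MRK-003. Its log2 ratios of co-culture over reference were 3.22 and 3.01 in Jagged1 DMSO, against 2.15 and 1.94 in vector DMSO. They were 1.99 and 1.80 in the libraries labelled Jagged1 MRK-003, against 1.83 and 2.01 in vector MRK-003, a difference of -0.02 ± 0.14. The sources used here do not say which species' Jagged1 was overexpressed, so whether this probe reads it is not known, and the labels of the MRK-003 libraries could not be checked by it. Hey1, a Notch target gene, was at -2.11 and -0.81 in Jagged1 MRK-003, against 3.19 and 2.78 in Jagged1 DMSO. Replicate 1 of every group lay on one slide and replicate 2 on another, and the second slide was dimmer, with median Cy3 signals of 76.5 to 117 against 165 to 204. A few spots on 3 of the 4 Jagged1 arrays had a very high local background, up to 32904 in Cy3. All 10 osteoblast markers were well above background on all 8 arrays. Of 14 epithelial markers, 10 were well above background on all 8 arrays, Cdh1 on 2, and Esrp1 and Ocln on none.

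Most of these genes were lower in the co-cultures than in the reference RNA. Of the 36 genes, 28 had a log2 ratio below 0 on all 8 arrays (77.8%), against 6389 of the 23439 genes tested (27.3%). Pfkfb3, which makes the bisphosphate activator of phosphofructokinase, and Bhlhb2, now named Bhlhe40 and a transcriptional repressor, were above 0 on all 8 arrays. The other 6 genes crossed 0. The levels of 9 genes are limited by the reference: Cy5 was saturated on all 8 arrays for Gpi1, Aldoa, Tpi1, Pgk1 and Pgam1, on 7 for Ldha and on 4 each for Pkm2, Ndrg1 and Ddit4. Over all genes, 401 (1.71%) had Cy5 saturated on an array. Cy3 was never saturated for the 36 genes and was well above background on all 8 arrays, so differences in Cy3 alone can be set beside the ratios of the 9. With Jagged1 tumour cells, MRK-003 minus DMSO was 0.58 by ratio and 0.47 in Cy3 alone for the aldolase Aldoa, 0.31 and 0.10 for the phosphoglucose isomerase Gpi1, and 0.11 and 0.04 for Pkm2. In the average of both co-cultures Gpi1 was 0.27 by ratio and -0.0070 in Cy3 alone, and Aldoa was 0.46 and 0.25. None of these 3 genes passed on either scale without a block for slide and with the background as extracted.

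Averaged over both co-cultures, 2 of the 36 genes rose in MRK-003 relative to DMSO, the glucose transporter Slc2a1 and the mitochondrial protein Higd1a, and 0 fell. Across all genes tested 0.299% passed in this comparison, at an adjusted p under 0.05 in limma with Benjamini-Hochberg adjustment. With slide as a block, a fit that compares arrays within each slide, 6 genes passed and all were higher in MRK-003: Slc2a1, Higd1a, the mitophagy receptor Bnip3 and the glycolytic enzymes Pgk1, Tpi1 and Pgam1. The background of that fit was 2.62%. The reference was saturated on all 8 arrays for 3 of the 6, and in Cy3 alone their average differences were 0.30 for Pgk1, 0.21 for Tpi1 and 0.48 for Pgam1 in place of 0.60, 0.46 and 0.72, with limma adjusted p-values of 0.333, 0.716 and 0.0871 without the block. Restricted to Jagged1 tumour cells, 0 of the 36 passed without the block (background 0.303%) and 5 with it (background 2.18%), the same genes less Pgam1. At an unadjusted p under 0.05 the counts were 7 of 36 with Jagged1 tumour cells (background 8.6%) and 7 in the average (background 9.86%), each as 6 higher and 1 lower. With the block they were 12 higher and 1 lower (background 15.4%), and 13 higher and 1 lower (background 17%). The median log2 difference of the 36 genes was 0.15 with Jagged1 tumour cells and 0.07 in the average, against -0.0038 and 0.0027 over all genes. Over the 27 genes whose reference was never saturated, the median with Jagged1 tumour cells was 0.0078, with 14 positive and 13 negative. It was 0.17, with 20 positive and 7 negative, when the local background of a spot was limited to 2 times the array median, a setting added after seeing the data.

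Slc2a1 encodes GLUT1, the main basal glucose carrier. Its log2 ratios were -2.73 and -2.59 in Jagged1 MRK-003, -3.60 and -3.64 in Jagged1 DMSO, -2.86 and -2.61 in vector MRK-003, and -3.32 and -3.56 in vector DMSO. All 4 MRK-003 arrays lay above all 4 DMSO arrays, and within each group the replicates were close. The average effect was 0.83 ± 0.09 (limma SE), a 1.78-fold higher level, with an adjusted p of 0.0419, and it was 0.67 on the first slide and 1.00 on the second. With Jagged1 tumour cells the difference was 0.96 ± 0.13, or 1.95-fold, with a limma adjusted p of 0.0638 without the block and 0.0323 with it. With vector tumour cells it was 0.70 ± 0.13, with an unadjusted limma p of 0.00167 and an adjusted p of 1. The call for the average rested on all 8 arrays: leaving out any 1 array kept the difference between 0.77 and 0.90 but gave limma adjusted p-values of 0.109 to 0.202. The same holds for Higd1a, with differences of 0.64 to 0.78 and adjusted p-values of 0.128 to 0.220.

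Higd1a encodes a small protein of the inner mitochondrial membrane that acts on the respiratory chain. Its log2 ratios were -1.58 and -1.55 in Jagged1 MRK-003, -2.39 and -2.34 in Jagged1 DMSO, -1.46 and -1.58 in vector MRK-003, and -2.00 and -2.29 in vector DMSO. The groups did not overlap in either co-culture. On average Higd1a was 0.71 ± 0.08 higher in MRK-003 (limma adjusted p = 0.0487), with 0.67 on the first slide and 0.75 on the second. A second, dim Higd1a probe with a mean Cy3 signal of 154 gave an average difference of 0.04, and the mean of both probes gave 0.38 with a limma adjusted p of 0.697. No cause of the disagreement between the probes was tested.

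Bnip3, a receptor on the outer mitochondrial membrane that tags mitochondria for mitophagy, had the largest difference of the 36 genes with Jagged1 tumour cells. Its log2 ratios were -2.66 and -1.97 in Jagged1 MRK-003, -3.68 and -3.30 in Jagged1 DMSO, -2.34 and -2.05 in vector MRK-003, and -3.07 and -2.33 in vector DMSO. Both Jagged1 MRK-003 arrays were above both Jagged1 DMSO arrays, while the vector groups overlapped. The difference with Jagged1 tumour cells was 1.18 ± 0.33, a 2.26-fold higher level, at 1.02 and 1.33 on the 2 slides, with a limma adjusted p of 0.301 that became 0.0212 with slide as a block. With vector tumour cells it was 0.51 ± 0.33. Its relative Bnip3l had a difference of -0.04 with Jagged1 tumour cells and log2 ratios between -1.82 and -1.50 on the 8 arrays.

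The probes of these 3 genes lie, on build mm7 as the array files give it, at chr4:118513698-118513757 for Slc2a1, chr9:121553753-121553812 for Higd1a and chr7:135295711-135295770 for Bnip3, and which exon or UTR each covers was not analysed here. Their promoters, with that of Pgk1, are printed because these genes were higher in MRK-003 and are known HIF targets in mammals, and they were chosen after their values were seen. Each is the 250 bases before the RefSeq start, 5′ to 3′ on the gene's own strand, from build GRCm38.p6, at chr4:119108495-119108744 on the plus strand for Slc2a1, chr9:121857797-121858046 on the minus strand for Higd1a, chr7:138909507-138909756 on the minus strand for Bnip3 and chrX:106186850-106187099 on the plus strand for Pgk1. Capitals mark the core letters of a hypoxia response element, ACGTG or GCGTG read on either strand, so CACGT and CACGC also count, with overlapping matches each counted.
Slc2a1: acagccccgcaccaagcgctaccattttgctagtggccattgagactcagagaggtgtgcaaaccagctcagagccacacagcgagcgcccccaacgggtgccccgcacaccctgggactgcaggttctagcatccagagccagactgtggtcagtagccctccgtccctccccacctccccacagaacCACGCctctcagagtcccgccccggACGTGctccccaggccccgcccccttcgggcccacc
Higd1a: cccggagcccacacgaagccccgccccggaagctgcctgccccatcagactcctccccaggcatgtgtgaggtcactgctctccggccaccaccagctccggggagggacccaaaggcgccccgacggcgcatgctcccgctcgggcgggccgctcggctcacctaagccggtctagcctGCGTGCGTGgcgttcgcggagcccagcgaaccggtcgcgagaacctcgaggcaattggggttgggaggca
Bnip3: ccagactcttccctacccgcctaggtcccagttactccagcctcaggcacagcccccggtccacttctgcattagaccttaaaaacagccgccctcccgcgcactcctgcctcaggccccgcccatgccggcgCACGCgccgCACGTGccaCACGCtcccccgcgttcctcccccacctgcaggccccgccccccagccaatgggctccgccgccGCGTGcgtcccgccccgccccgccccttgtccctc
Pgk1: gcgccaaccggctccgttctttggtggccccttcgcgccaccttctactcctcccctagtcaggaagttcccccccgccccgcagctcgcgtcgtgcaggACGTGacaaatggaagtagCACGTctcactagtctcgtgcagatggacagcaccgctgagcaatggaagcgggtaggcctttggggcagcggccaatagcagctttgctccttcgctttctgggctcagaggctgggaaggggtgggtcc
Slc2a1, Higd1a and Pgk1 held 2 matches each and Bnip3 held 5. A match describes the letters and does not show binding.

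**Figure D1:**
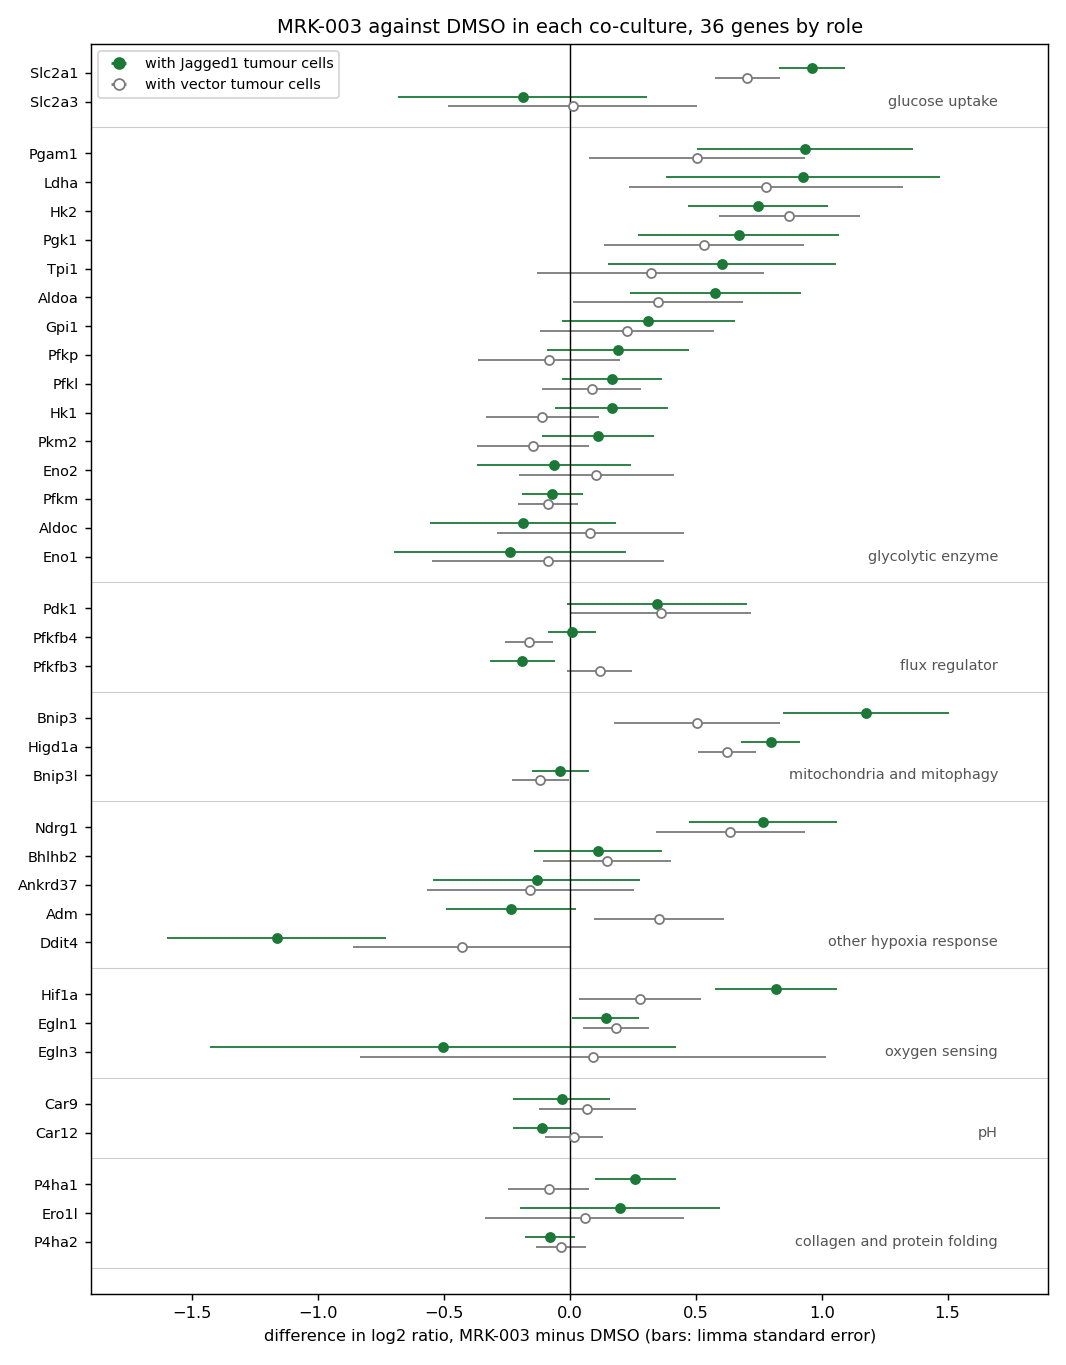
Difference in log2 ratio, MRK-003 minus DMSO, for 36 genes grouped by role. Filled points are co-cultures with Jagged1 tumour cells, open points those with vector tumour cells, and bars are limma standard errors. Bnip3 at 1.18 is highest and Ddit4 at -1.16 lowest with Jagged1 tumour cells.

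Among the 15 glycolytic enzymes measured, 11 had a positive difference with Jagged1 tumour cells and 4 a negative one, with a median of 0.19 and a range of -0.24 to 0.93. None of the 15 passed without the block (background 0.303%) and 2 passed with it, Pgk1 and Tpi1 (background 2.18%). Pgk1, phosphoglycerate kinase, makes the first ATP of the pathway. Its log2 ratios were -1.37 and -1.86 in Jagged1 MRK-003, -1.93 and -2.64 in Jagged1 DMSO, -1.28 and -1.89 in vector MRK-003, and -1.69 and -2.54 in vector DMSO. Each value on the second slide was lower than its partner on the first, so the replicates of a group spread about as far as the treatments. The difference with Jagged1 tumour cells was 0.67 ± 0.40, at 0.56 and 0.78 on the 2 slides, with a limma adjusted p of 0.882 without the block and 0.0443 with it. A second Pgk1 probe gave 0.62. Of the other positive enzymes, second probes were also positive for Aldoa (0.60) and Ldha (0.44). They were negative for Gpi1 (-0.08) and Pkm2 (-0.10), and those probes had no saturated reference. Further probes were mixed in sign for Pfkp (0.02 and -0.14) and for Hk1. Gpi1, Aldoa, Tpi1, Pgk1, Pgam1, Ldha and Pkm2, all positive, had a saturated reference for the probe used.

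Tpi1, which interconverts the triose phosphates, and Pgam1, phosphoglycerate mutase, showed the same slide pattern. Tpi1 was at -0.11 and -0.90 in Jagged1 MRK-003, -0.83 and -1.39 in Jagged1 DMSO, -0.03 and -0.90 in vector MRK-003, and -0.38 and -1.19 in vector DMSO. Pgam1 was at 0.65 and 0.14 in Jagged1 MRK-003, -0.23 and -0.85 in Jagged1 DMSO, 0.58 and 0.06 in vector MRK-003, and 0.36 and -0.74 in vector DMSO. By ratio both genes were higher in MRK-003 on each slide of each co-culture. In Cy3 alone Tpi1 was lower in MRK-003 on the second slide with vector tumour cells, at 14.24, against 14.59 in DMSO. So was Pgk1 there, at 13.22 in MRK-003, against 13.26 in DMSO. The differences with Jagged1 tumour cells were 0.60 ± 0.45 for Tpi1, with a limma adjusted p of 0.0490 with the block, and 0.93 ± 0.43 for Pgam1, with 0.0577 there and 0.0435 in the average. Because the reference was saturated for Pgk1, Tpi1 and Pgam1, the Cy3 channel alone is set beside the ratio: it gave 0.42, 0.42 and 0.78 with Jagged1 tumour cells, and 0.19, 0.01 and 0.18 with vector tumour cells, where the ratios gave 0.53, 0.32 and 0.51.

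Ldha, the lactate dehydrogenase subunit that favours lactate, was at 0.40 and -0.13 in Jagged1 MRK-003, -0.37 and -1.21 in Jagged1 DMSO, 0.41 and -0.12 in vector MRK-003, and 0.10 and -1.38 in vector DMSO. The second-slide DMSO arrays were the lowest. Its difference of 0.93 ± 0.54 with Jagged1 tumour cells and its average of 0.85 ± 0.38 did not pass, with limma adjusted p-values of 0.140 and 0.0751 with the block, and a second probe gave 0.44 and 0.54. In Cy3 alone the Ldha differences were 0.76 and 0.64. Hk2, the inducible hexokinase, was at -0.80 and -0.39 in Jagged1 MRK-003, -1.17 and -1.52 in Jagged1 DMSO, -0.91 and -0.37 in vector MRK-003, and -1.24 and -1.78 in vector DMSO. All 4 MRK-003 arrays were above all 4 DMSO arrays, as for Slc2a1, Higd1a and Ndrg1, which makes 4 of 36 genes higher and 0 lower by that measure (background 2.63% higher and 3.41% lower). The average Hk2 difference was 0.81 ± 0.20 with a limma adjusted p of 0.199, but it was 0.35 on the first slide and 1.27 on the second. Hk1, the constitutive hexokinase, differed by 0.17 with Jagged1 tumour cells. The other, dimmer Hk1 probes gave -0.25, -0.16, -0.09, -0.03 and 0.01 with Jagged1 tumour cells. Eno1, an enolase, had -0.24 ± 0.46 there and changed sign between slides.

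**Figure D2:**
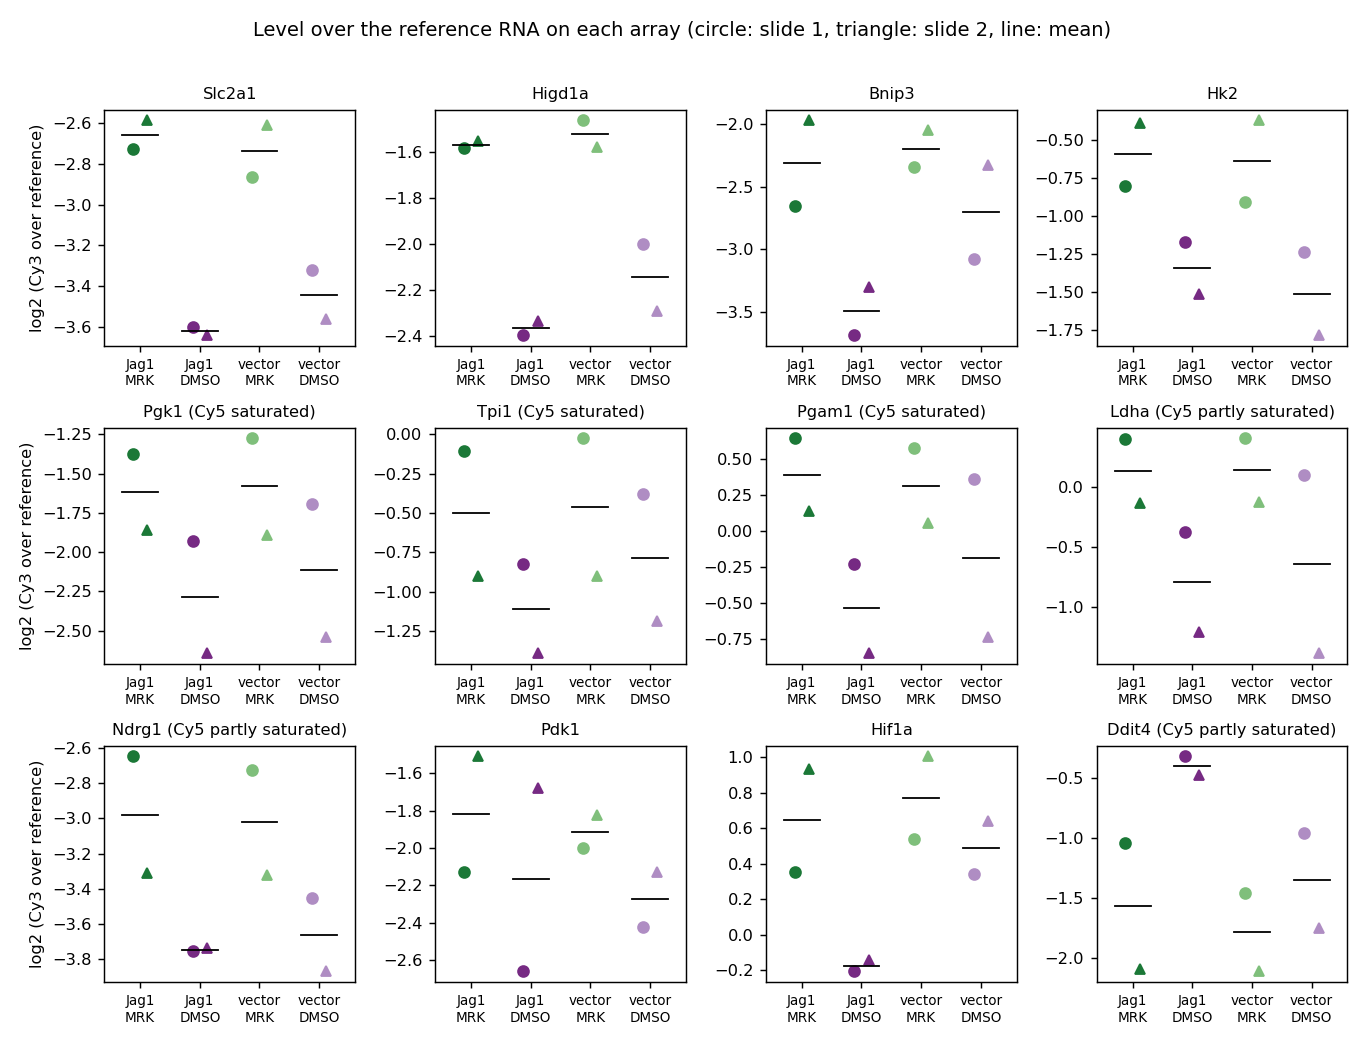
Log2 ratio of Cy3 over the reference on each of the 8 arrays for 12 genes, in the groups Jagged1 MRK-003, Jagged1 DMSO, vector MRK-003 and vector DMSO. Circles are the first slide, triangles the second and lines the group means; panel titles mark genes whose reference was saturated. Slc2a1 and Higd1a separate MRK-003 from DMSO in both co-cultures, while Pgk1, Tpi1, Pgam1 and Ldha are lower on the second slide in every group.

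Pdk1, a kinase of pyruvate dehydrogenase, did not pass. It was at -2.13 and -1.51 in Jagged1 MRK-003, -2.66 and -1.68 in Jagged1 DMSO, -2.00 and -1.82 in vector MRK-003, and -2.42 and -2.13 in vector DMSO, a difference of 0.35 ± 0.36 with Jagged1 tumour cells. This is a dim probe, with a mean Cy3 signal of 452, and it moved with the treatment of background. With the limited background the difference was 0.68, and with the block as well its limma adjusted p was 0.00455. Pfkfb3 was at 0.01 and 0.12 in Jagged1 MRK-003, 0.15 and 0.36 in Jagged1 DMSO, 0.05 and 0.32 in vector MRK-003, and 0.11 and 0.02 in vector DMSO, and its differences with Jagged1 and vector tumour cells had opposite signs. Pfkfb4, a relative of Pfkfb3, differed by 0.01 ± 0.10 with Jagged1 tumour cells.

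Of the oxygen-sensing genes, Hif1a itself, the HIF-1alpha subunit, was at 0.36 and 0.94 in Jagged1 MRK-003, -0.20 and -0.14 in Jagged1 DMSO, 0.54 and 1.01 in vector MRK-003, and 0.34 and 0.64 in vector DMSO. The 2 Jagged1 DMSO arrays were the lowest of the 8 and the only ones below 0. With Jagged1 tumour cells the difference was 0.82 ± 0.24, with 0.56 and 1.08 on the 2 slides and a limma adjusted p of 0.343 without the block and 0.0508 with it. The array measures Hif1a mRNA and not the protein, which is the form oxygen controls. Egln1, the main prolyl hydroxylase, differed by 0.14 ± 0.13 there.

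Ddit4, known as REDD1 and an inhibitor of the growth kinase mTOR, ran the other way. Its log2 ratios were -1.04 and -2.09 in Jagged1 MRK-003, -0.32 and -0.47 in Jagged1 DMSO, -1.46 and -2.11 in vector MRK-003, and -0.96 and -1.75 in vector DMSO. Jagged1 DMSO stood highest, above all other arrays. With Jagged1 tumour cells the difference was -1.16 ± 0.43, at -0.72 and -1.61 on the 2 slides, with a limma adjusted p of 0.504 without the block and 0.0603 with it, and Cy3 alone gave -1.14. Ndrg1, a stress-response gene of still debated function, was at -2.65 and -3.31 in Jagged1 MRK-003, -3.75 and -3.74 in Jagged1 DMSO, -2.72 and -3.32 in vector MRK-003, and -3.45 and -3.87 in vector DMSO. Its average difference of 0.70 ± 0.21 had limma adjusted p-values of 0.297 without the block and 0.0524 with it, and Cy3 alone gave 0.73.

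In the Jagged1 co-cultures, 12 of the 36 genes had both MRK-003 arrays above both DMSO arrays and 4 had both below, against backgrounds of 18.4% and 15.9% of all genes. With the limited background, 2 genes passed in limma both with Jagged1 tumour cells (background 2.06%) and in the average (background 1.91%), again Slc2a1 and Higd1a. With the limited background and the block, 13 passed with Jagged1 tumour cells (background 9.54%), namely Ddit4 lower and Slc2a1, Higd1a, Bnip3, Aldoa, Tpi1, Pgk1, Pgam1, Ldha, Pdk1, Ndrg1, Hif1a and Ero1l higher. In the average 13 passed as well (background 9.12%), with Hk2 in place of Ero1l, an oxidase of protein folding. The 10 epithelial markers in the fit all had a negative difference with Jagged1 tumour cells, with a median of -0.19 (limited background -0.09) and no call. Of 11 macrophage markers 8 were negative, with a median of -0.25 (limited background -0.0035), and of 10 osteoblast markers 7 were positive, with a median of 0.14 (limited background 0.16), with no call in either list. The part of these markers in the MRK-003 results was not tested.

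**Figure D3:**
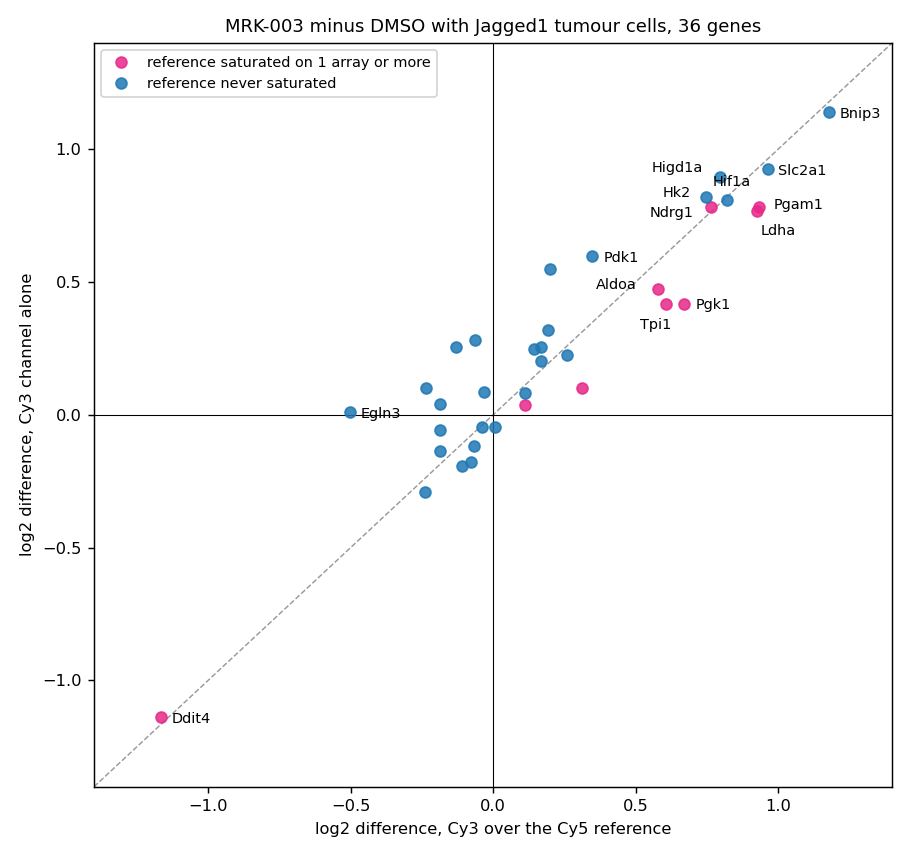
Difference in log2 value, MRK-003 minus DMSO with Jagged1 tumour cells, for 36 genes: Cy3 over the Cy5 reference on the horizontal axis and Cy3 alone on the vertical axis, with a dashed line of equality. Pink genes had a saturated reference on 1 array or more; Pgk1 at 0.67 and Tpi1 at 0.60 by ratio are both 0.42 in Cy3 alone, and Slc2a1 at 0.96 is 0.92.

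The remaining genes with values to give on every array showed no call in any of the 6 comparisons, with or without the block. Car9, a membrane carbonic anhydrase that handles acid outside the cell, was at -0.53 and -0.48 in Jagged1 MRK-003, -0.44 and -0.51 in Jagged1 DMSO, -0.52 and -0.93 in vector MRK-003, and -0.57 and -1.02 in vector DMSO. The collagen prolyl hydroxylase subunit P4ha1 was at -0.63 and -0.67 in Jagged1 MRK-003, -1.08 and -0.73 in Jagged1 DMSO, -0.91 and -0.59 in vector MRK-003, and -0.73 and -0.59 in vector DMSO. Its sister subunit P4ha2 was at -0.72 and -0.70 in Jagged1 MRK-003, -0.71 and -0.55 in Jagged1 DMSO, -0.84 and -0.67 in vector MRK-003, and -0.74 and -0.71 in vector DMSO. The MRK-003 and DMSO arrays overlapped in both co-cultures for Car9 and P4ha2, and with vector tumour cells for P4ha1. Bhlhb2 was at 0.11 and 0.56 in Jagged1 MRK-003, 0.12 and 0.34 in Jagged1 DMSO, 0.03 and 0.62 in vector MRK-003, and 0.01 and 0.35 in vector DMSO, with the second slide higher each time. Ankrd37, an ankyrin repeat protein induced by HIF, was at -3.17 and -2.21 in Jagged1 MRK-003, -2.94 and -2.18 in Jagged1 DMSO, -3.23 and -2.65 in vector MRK-003, and -2.97 and -2.60 in vector DMSO, and its groups overlapped.

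Jagged1 against vector tumour cells in DMSO asks how Jagged1 in the tumour cells acts on these genes when Notch can be cleaved. In DMSO none of the 36 genes passed, with or without the block (background 0.0171% and 0.457%). At an unadjusted p under 0.05 there were 2, Adm higher and Hif1a lower (background 8.14%). With the block there were 3 higher, Adm, Egln3 and Ddit4, and 4 lower, Bnip3, Hif1a, Hk1 and Tpi1 (background 19.9%). The signs split 19 to 17 with a median of 0.0083, against 0.0036 over all genes. With the limited background the signs split 11 to 25, and both Jagged1 arrays were above both vector arrays for 3 genes and below for 9. The shares of all genes above and below were not computed for that setting. With the background as extracted, both Jagged1 arrays were above both vector arrays for 7 genes and below for 6, against backgrounds of 24.1% and 23.5%. The 3 largest positive differences were Egln3, Adm and Ddit4, and the 3 largest negative ones Bnip3, Hif1a and Pkm2, a pyruvate kinase gene at -0.39 ± 0.22 (-0.33 in Cy3 alone). This comparison and the MRK-003 comparison with Jagged1 tumour cells share the Jagged1 DMSO arrays.

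Adm encodes adrenomedullin, a secreted peptide that widens blood vessels. It was at -2.17 and -2.13 in Jagged1 DMSO, against -2.90 and -3.57 in vector DMSO, and at -2.56 and -2.21 in Jagged1 MRK-003, against -2.68 and -3.08 in vector MRK-003. With the background as extracted, the Jagged1 arrays were higher in both treatments. With the limited background they overlapped the vector arrays in both treatments, at -2.31 and -3.32 against -2.90 and -3.65 in DMSO. The difference in DMSO was 1.08 ± 0.26, or 2.12-fold, with a limma adjusted p of 0.384, and it was 0.46 with the limited background and 0.30 in Cy3 alone. Egln3, the prolyl hydroxylase most readily induced by HIF, was at -4.41 and -2.58 in Jagged1 DMSO, against -5.12 and -4.19 in vector DMSO, and at -5.17 and -2.83 in Jagged1 MRK-003, against -4.89 and -4.24 in vector MRK-003. The replicates of each Jagged1 group were far apart, and the DMSO groups overlapped. Its difference of 1.16 ± 0.92 (limma adjusted p = 0.719) became -0.17 with the limited background, where the Jagged1 DMSO arrays read -5.29 and -4.48 and the vector DMSO arrays -5.12 and -4.31.

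Between Jagged1 and vector tumour cells in DMSO, most of the dimmest probes moved with the background setting, and Car12 did not. Between MRK-003 and DMSO with Jagged1 tumour cells Car12 did move, from -0.11 to -0.24 with the limited background. Mean Cy3 signals were 75.0 for Egln3, 111 for the glucose transporter Slc2a3, 113 for the carbonic anhydrase Car12, 227 for the aldolase Aldoc and 310 for each of Adm and the enolase Eno2. With the limited background the difference in DMSO was 0.03 for Slc2a3 in place of 0.84, 0.02 for Aldoc in place of 0.74 and -0.10 for Eno2 in place of 0.49. For Car12 it was 0.22 in place of 0.21. For Ankrd37 the sign changed, with -0.30 in place of 0.22, and for Pdk1 too, with -0.39 in place of 0.11. The median of the 36 genes was -0.12 with the limited background. In the same comparison all 10 epithelial markers in the fit were positive with a median of 0.57 (limited background 0.17) and no call, and the 11 macrophage markers had a median of 0.79 (limited background -0.02). With the background as extracted, the mean log2 ratios of the epithelial list were -2.10 and -1.67 in Jagged1 DMSO, against -2.52 and -2.42 in vector DMSO. With the limited background they were -2.31 and -2.29, against -2.52 and -2.46. The part of these markers in the results was not tested.

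**Figure D4:**
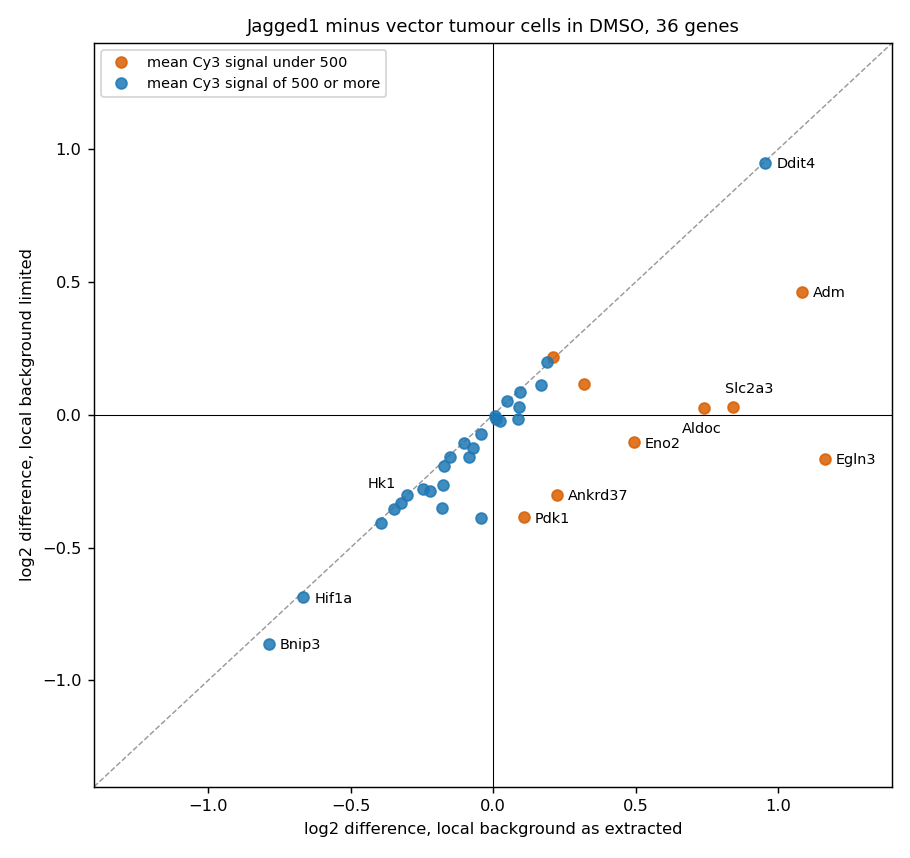
Difference in log2 ratio, Jagged1 minus vector tumour cells in DMSO, for 36 genes: local background as extracted on the horizontal axis and limited on the vertical axis, with a dashed line of equality. Orange genes have the dimmer Cy3 signals; Egln3, Adm, Slc2a3, Aldoc and Eno2 lie far under the line, while Ddit4, Bnip3 and Hif1a lie near it.

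The background setting moved Bnip3, Hif1a and Ddit4 little. Bnip3 averaged -3.49 ± 0.27 in Jagged1 DMSO, against -2.70 ± 0.52 in vector DMSO (SD, n = 2 each), and both Jagged1 arrays were lower. The difference was -0.79 ± 0.33, with limma adjusted p-values of 0.617 without the block and 0.0930 with it, and -0.86 with the limited background. Hif1a averaged -0.17 ± 0.04 in Jagged1 DMSO, against 0.49 ± 0.21 in vector DMSO (SD, n = 2 each), a difference of -0.67 ± 0.24 with a limma adjusted p of 0.585. Ddit4 had a difference of 0.95 ± 0.43, at 0.63 and 1.28 on the 2 slides, with a limma adjusted p of 0.636, and Cy3 alone gave 0.99. When limited background and block were combined, 3 genes passed (background 3.83%), Bnip3 and Hif1a lower (limma adjusted p = 0.0212 and 0.0482) and Ddit4 higher (limma adjusted p = 0.0497).

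The promoters of Egln3, Adm and Ddit4 are printed as those of the 3 genes with the largest differences in size with the background as extracted. With the limited background the 3 largest were Ddit4 at 0.95, Bnip3 at -0.86 and Hif1a at -0.69. They are the 250 bases before the RefSeq start on GRCm38.p6, on the gene's own strand, at chr12:54203875-54204124 on the minus strand, chr7:110627407-110627656 on the plus strand and chr10:59951771-59952020 on the minus strand, with the same letters in capitals.
Egln3: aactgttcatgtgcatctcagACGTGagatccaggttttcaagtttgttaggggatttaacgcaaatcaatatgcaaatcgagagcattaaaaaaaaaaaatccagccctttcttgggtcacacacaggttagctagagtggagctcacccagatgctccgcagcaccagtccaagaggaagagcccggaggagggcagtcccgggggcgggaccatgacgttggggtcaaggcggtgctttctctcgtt
Adm: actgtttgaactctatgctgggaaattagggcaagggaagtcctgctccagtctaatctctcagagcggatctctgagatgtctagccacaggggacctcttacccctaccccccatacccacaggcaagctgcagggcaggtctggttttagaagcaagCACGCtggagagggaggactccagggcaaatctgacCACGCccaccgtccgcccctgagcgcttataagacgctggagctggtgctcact
Ddit4: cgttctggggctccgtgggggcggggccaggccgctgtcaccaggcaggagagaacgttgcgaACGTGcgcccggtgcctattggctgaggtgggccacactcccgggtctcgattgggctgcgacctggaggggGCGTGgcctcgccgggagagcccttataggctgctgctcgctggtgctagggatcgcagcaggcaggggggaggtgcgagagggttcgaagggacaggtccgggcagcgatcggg
Egln3 held 1 match, and Adm and Ddit4 held 2 each.

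With MRK-003 present, none of the 36 genes passed between the libraries labelled Jagged1 and vector (background 0%), and 0 had an unadjusted limma p under 0.05 (background 0.653%). The largest differences were 0.64 for Slc2a3, 0.57 for Egln3 and 0.49 for Adm on the positive side, and -0.13 for Pkm2, -0.13 for Hif1a and -0.12 for Pfkfb3 on the negative side. With the limited background they were 0.0064 for Slc2a3, -0.33 for Egln3 and 0.15 for Adm. MRK-003 against DMSO with vector tumour cells gave no call either (background 0%), with 3 genes at an unadjusted limma p under 0.05 (background 3.6%). With the block 0 passed, and 10 genes were higher and 0 lower at an unadjusted limma p under 0.05. With the limited background and the block these counts were 12 and 0, again with no call. For MRK-003 with vector tumour cells the share of all genes was not computed in these fits, so the counts have no background beside them. The largest there were Hk2 at 0.87 ± 0.28, Ldha at 0.78 ± 0.54 and Slc2a1 at 0.70 ± 0.13, with Ldha at 0.51 in Cy3 alone and Ddit4 at -0.43 ± 0.43 lowest (-0.33 in Cy3 alone), then Pfkfb4 and Ankrd37 at -0.16 each. The interaction term, in which the Jagged1 difference under MRK-003 is subtracted from that under DMSO, asks whether the MRK-003 effects in the 2 co-cultures differ, and none of the 36 passed in limma (background 0%), with 0 at an unadjusted p under 0.05 (background 2.18%). With the block 0 passed, and 3 had an unadjusted limma p under 0.05 (background 6.37%), Ddit4 higher and Bnip3 and Hif1a lower. Ddit4 at 0.74 ± 0.61, Egln3 at 0.60 ± 1.31 and Adm at 0.59 ± 0.37 were highest, and Bnip3 at -0.67 ± 0.47, Hif1a at -0.54 ± 0.34 and Pgam1 at -0.43 ± 0.61 lowest. The limited background gave 0.16 for Egln3 and 0.31 for Adm. For Bnip3 the limma adjusted p of the interaction was 1 without the block and 0.671 with it, so its larger MRK-003 difference with Jagged1 tumour cells did not pass the test of a difference between co-cultures.

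In RefSeq, 33 of the 37 genes had a promoter entry. ACGTG or GCGTG stood on either strand of the 250 bases in 29 of them (87.9%), against 6965 of 13182 genes tested on the arrays with an entry (52.8%) and 11226 of 27025 genes in the whole table (41.5%). ACGTG alone stood in 19 (57.6%), against 2944 (22.3%) and 4998 (18.5%). For genes with several starts the one with most matches was counted, in all 3 sets. Gpi1, Tpi1, Eno2 and Car12 had no match in the window.

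Other genes of the pathway, from lists that hold none of the 37, did not move as 1 block. All 12 genes of the HIF machinery were measured and 0 passed in any of the 6 comparisons, with or without the block; the von Hippel-Lindau ligase gene Vhl had -0.32 ± 0.13 between Jagged1 and vector tumour cells in DMSO (limma adjusted p = 0.613), and Cited2, a HIF competitor, 0.23 ± 0.09 between MRK-003 and DMSO with Jagged1 tumour cells (limma adjusted p = 0.583). Of 27 other HIF target genes, Vegfa, the blood vessel growth factor, fell by 1.36 ± 0.14 on the log2 scale in MRK-003 with Jagged1 tumour cells (limma adjusted p = 0.0338), opposite in sign to Slc2a1 and Bnip3. Over all genes 0.303% passed in that comparison without the block and 2.18% with it. With the block 2 more targets were lower, the collagen lysyl hydroxylase Plod2 at -0.80 and the cyclin Ccng2 at -1.23, and 2 were higher, the transferrin receptor Tfrc at 0.98 and the mitochondrial Fam162a at 0.77. The median of the 27 was -0.04. In DMSO, Vegfa was 0.92 higher with Jagged1 than with vector tumour cells, with a limma adjusted p of 0.175 without the block and 0.0462 with it.

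In lactate and pyruvate handling, 13 of 14 genes were measured and 1 passed, the lactate carrier Slc16a1, against backgrounds of 0.303% with MRK-003 and Jagged1 tumour cells and 0.0171% with Jagged1 in DMSO. It was 1.83 ± 0.08 higher in MRK-003 than in DMSO with Jagged1 tumour cells (limma adjusted p = 0.00302) and had a difference of -1.16 ± 0.08 between Jagged1 and vector tumour cells in DMSO (limma adjusted p = 0.0449). With the block 3 passed with Jagged1 tumour cells (background 2.18%), Slc16a1, pyruvate carboxylase Pcx at 0.58 ± 0.10 and the pyruvate dehydrogenase phosphatase Pdp1 at 1.24 ± 0.26. Of 23 measured genes of other glycolytic isoforms and glycogen metabolism, 0 passed without the block (background 0.303%). Pdk4, the starvation-induced relative of Pdk1, was 1.67 ± 0.24 higher in MRK-003 with Jagged1 tumour cells, with a limma adjusted p of 0.0672 without the block and 0.0128 with it.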

How the data were processed

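The members and gene lists were chosen with earlier results of these data known. RNA of each co-culture in Cy3 was set against a reference RNA in Cy5 on 8 Agilent arrays. Per the file headers, the authors extracted spots with Feature Extraction 9.5.3.1, with probe positions on mm7. The deposited intensity values used were mean signals and median local backgrounds, unnormalized, and the scanner software's processed signals. The deposited 0 or 1 flags marked outliers, saturation and spots well above background. The authors' deposited log2 value table matched the log2 ratio of the processed signals plus 1 constant per array (100% of probes within 0.02), and was used as an alternative.

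Background was corrected by normexp (offset 50) and ratios by loess within arrays, control spots at weight 0. Outlier marks removed 303 probes and a filter on dim probes 7887, which left 23439 genes. limma 3.58.1 in R 4.3.3 fitted 4 group means on all genes, with Benjamini-Hochberg adjustment within each of 6 comparisons. The fit was tested on simulated data in which arrays varied independently, with no difference between slides. That simulation therefore does not test how the block acts on the slide difference in these data. With 2 arrays per group the number of arrays limits the precision. Each p-value sets a difference against the spread between replicate arrays, pooled over the 4 groups and moderated over all genes. Without the block that spread includes the difference between slides. Replicate numbers coincide with slides, and same-numbered arrays deviated together in all 6 pairs of groups (correlations of 0.386 to 0.744), so the numbers pair the samples. Values on every array are given for a set of members fixed by name and for each member passing with or without the block, and the 3 largest differences per direction were also named. Alternatives were other background corrections, normalizations, filters, probe rules and variance models, Cy3 alone, and leaving out each array. RefSeq promoters are from GRCm38.p6.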

Additional observations from a re-analysis of the deposited data

How the results depend on the processing

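The direction of Slc2a1 and Higd1a in MRK-003 was positive under every alternative run with Jagged1 tumour cells and in the average, but their call in the average of both co-cultures (2 genes) did not. There the count was 0 with normexp offset 0, 0 with median centring and 0 with an intensity trend and robust spread, 1 each with Cy3 alone, with no filter on dim probes and with the mean over probes, and 0 to 0 when each array was left out. It was 6 with the replicate block and 13 with the limited background and the replicate block. With Jagged1 tumour cells the count was 2 without background correction, 1 with the authors' value table and 1 with Cy3 alone, against 0. It was 2 with the limited background, 5 with the replicate block and 13 with both. Between Jagged1 and vector tumour cells in DMSO it was 3 with the limited background and replicate block, against 0, and the block alone changed no other call among the 36 genes. Among these alternatives the share of all genes passing was computed only with the block, the limited background or both. The counts under the other alternatives therefore have no background beside them. The replicate number pairs arrays of 1 slide, so the block takes out the difference between slides. Leaving out 1 array at a time gave -0.14 to 0.84 for Pdk1 in MRK-003 with Jagged1 tumour cells, negative without Jagged1 DMSO replicate 1, and -0.29 to 0.69 for Ero1l, negative without that array and without Jagged1 MRK-003 replicate 2 (-0.11). Median centring moved the members' median between Jagged1 and vector to -0.38 in DMSO and -0.35 in MRK-003. Of the counts recomputed 109 stayed close, 9 were higher and 14 lower, and of the medians 130 stayed close and 2 moved, and the cause of the shifts was not tested. Signal over background limits the dim probes, and a saturated reference limits 9 genes.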

Other observations

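A probe named LOC14433, whose gene number is that of Gapdh in RefSeq, was not counted among the 36 genes. Its log2 difference was -0.43 ± 0.19 between Jagged1 and vector tumour cells in DMSO and 0.18 ± 0.19 between MRK-003 and DMSO with Jagged1 tumour cells, and neither passed in limma (adjusted p = 0.628 in the first). Of the 16 members with more than 1 kept probe, all probes had the same direction in 10 between MRK-003 and DMSO with Jagged1 tumour cells and in 12 in the average.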
